A study of Mus musculus with 15 samples.

Results

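The regions described here are stretches of histone H3 lysine 36 trimethylation (H3K36me3) that were called inside genes in both H3.3 conditional knockout (cKO) libraries and in neither wild-type (WT) library of mouse bone marrow-derived macrophages (BMDMs). The 4 H3K36me3 region lists (WT 1 and 2, cKO 1 and 2) were merged on chromosomes 1 to 19 and X of mm10, and a merged region was kept when each cKO list and no WT list overlapped it by at least 1 bp and its midpoint lay in the body of a protein-coding gene. This gave 1069 regions of 58499 merged regions, placed in 871 of 21755 protein-coding genes. The regions were therefore selected on their measured presence in these same 4 libraries, so their H3K36me3 is a description and carries no test.

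BMDMs were grown for 6 to 8 days in L929-conditioned medium from marrow of C57BL/6 mice aged 8 to 10 weeks. The labels name the groups WT and H3.3cKO. By the study's text, WT mice were H3f3a fl/fl H3f3b fl/fl, with floxed alleles of both genes that encode the replacement histone H3.3, and cKO mice carried these alleles with Cre at Lyz2 (LysM), which is active in cells of the myeloid lineage. By the study's methods loxP sites flank exon 2 of H3f3a and exons 1 to 4 of H3f3b. CUT & RUN, which releases the DNA around an antibody-bound protein with a tethered nuclease, was run for H3K36me3 and for H3K27 acetylation (H3K27ac) with 2 biological replicates per genotype, and for HA-tagged H3.3 in 2 replicates of H3.3-HA mice, which carry an HA tag on H3f3b in its own place.

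H3K36me3 is laid down in gene bodies by Setd2, which travels with elongating RNA polymerase II, so the mark usually follows transcription and builds up towards the 3' part of a gene. H3K27ac marks active promoters and enhancers. H3.3 is placed into chromatin outside of DNA replication, at transcribed genes and regulatory elements.

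The H3K36me3 libraries held 15086387 and 14027132 tags in WT and 23782914 and 23503055 in cKO. The share of tags inside called regions was 47.1% and 50.2% in WT and 19.3% and 46.5% in cKO, so that cKO 1 stood apart, and its regions covered 90.6 Mb against 163.3 to 170.3 Mb in the others. H3K27ac regions covered 89.6 and 74.8 Mb in WT and 46.2 and 62.0 Mb in cKO. A peak had to hold 12 and 11 tags in WT and 16 and 15 in cKO, which is a lower limit for cKO relative to the tags in the library. The part of this in the results was not tested. At the targeted genes the lists did not show a complete deletion in the libraries labelled cKO. Over exons 1 to 4 of the 4-exon H3f3b model, which span 2544 bp with their introns, H3K36me3 regions covered 645 and 860 bp in WT and 1070 and 1122 bp in cKO, and H3K27ac regions 0 bp in both WT and 1212 and 1667 bp in cKO. In a 6-exon model exons 1 to 4 span 4081 bp, of which H3K36me3 covered 0 bp in both WT and 1277 and 863 bp in cKO. H3K27ac covered 1446 and 1461 bp of that stretch in WT and 2237 and 3271 bp in cKO. Called signal in both cKO libraries thus lay inside the stretch described as floxed, which goes against their label if the loxP sites enclose it. The study itself reports that H3f3b deletion varied between cKO samples, from partial to complete. It reports depletion of H3.3 in cKO BMDMs by PCR, qRT-PCR, RNA-seq and western blot. The positions of the loxP sites are not given in the sources used here, and the 3 coding exons of H3f3b held no region in any library. Exon 2 of H3f3a in its 4-exon model H3f3a-201 held none either, in WT or cKO. An exon without a region in WT cannot show a deletion. In the 4-exon models H3f3a-203 and H3f3a-206, H3K27ac covered all 57 and 97 bp of exon 2 in every library. In the 5-exon model H3f3a-207 it covered all 77 bp in both cKO libraries and 0 bp in WT. The H3f3a coding exons as a whole held 154 and 280 bp of H3K36me3 in cKO and 232 and 280 bp in WT. From here on, cKO means the libraries labelled so.

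In H3K36me3, markers of dendritic cells were not alike in both groups. Macrophage identity genes carried H3K36me3 in 16 to 19 of 22 genes per library and fibroblast and mast cell genes in 0 of 12 and 0 of 8. Dendritic cell genes carried it in 7 and 6 of 14 genes in WT and in 0 and 1 in cKO, and neutrophil genes in 2 and 2 of 14 in WT and in 1 and 1 in cKO. Over the dendritic cell list the covered share of gene length was 1.42% and 2.86% in WT and 0% and 0.57% in cKO. Over the neutrophil list it was 14.1% and 17.7% in WT and 11.3% and 15.1% in cKO, so the groups overlapped. B cell, T and NK cell and erythroid genes carried H3K36me3 in 0 or 1 gene per library. H3K27ac did not show the same differences. Dendritic cell genes carried H3K27ac in 5 and 6 of 14 genes in WT and in 5 and 5 in cKO. Neutrophil genes carried it in 6 and 7 of 14 in WT and in 8 and 8 in cKO. Macrophage identity genes carried it in 22 and 20 of 22 in WT and in 18 and 17 in cKO. The part of these cells in the results was not tested.

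Sequences at 4 of the genes are shown first, to place the mark on the gene. In each, capitals are the last 50 bases of a coding exon and small letters the first 50 bases of the next intron, read from GRCm38 (mm10) in the direction of the gene. All 4 stretches lay inside a merged region present only in cKO. In cKO 2 the called signal covered all 4 regions whole, and so each printed stretch. In cKO 1 it covered most of the Oasl1 and Ifi44 regions but only a small part of the Axl and Espl1 regions. Whether cKO 1 covered the printed bases was not tested.
Oasl1 exon edge, chr5:114929954-114930053, plus strand: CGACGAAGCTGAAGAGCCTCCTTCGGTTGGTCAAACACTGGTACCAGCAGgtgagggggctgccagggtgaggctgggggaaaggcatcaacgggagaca
Ifi44 exon edge, chr3:151739270-151739369, minus strand: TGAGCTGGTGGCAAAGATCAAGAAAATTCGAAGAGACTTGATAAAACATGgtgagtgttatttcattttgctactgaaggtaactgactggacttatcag
Axl exon edge, chr7:25766743-25766842, minus strand: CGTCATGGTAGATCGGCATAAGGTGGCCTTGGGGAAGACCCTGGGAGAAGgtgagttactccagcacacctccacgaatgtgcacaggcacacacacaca
Espl1 exon edge, chr15:102312537-102312636, plus strand: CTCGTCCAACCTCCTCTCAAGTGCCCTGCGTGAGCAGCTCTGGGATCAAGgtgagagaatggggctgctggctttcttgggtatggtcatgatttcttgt
Oasl1 (2'-5' oligoadenylate synthetase-like) and Ifi44 are interferon-induced antiviral genes, Axl is a receptor tyrosine kinase used in uptake of dead cells, and Espl1 is separase, the protease that cuts cohesin at anaphase.

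Promoter sequences are shown for 6 interferon-induced and mitotic host genes, picked after their values were seen. Each stretch is the 250 bases before the RefSeq start (GRCm38.p6). In the first 3, capitals mark GAAANNGAAA on either strand, the core of the interferon-stimulated response element bound by interferon-activated factors.
Ddx60 promoter, chr8:61927837-61928086, plus strand: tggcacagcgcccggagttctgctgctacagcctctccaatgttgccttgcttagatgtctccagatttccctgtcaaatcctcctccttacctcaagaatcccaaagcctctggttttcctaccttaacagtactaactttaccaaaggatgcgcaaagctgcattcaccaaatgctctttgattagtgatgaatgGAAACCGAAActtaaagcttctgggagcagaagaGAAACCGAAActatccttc
Ifit3b promoter, chr19:34607707-34607956, plus strand: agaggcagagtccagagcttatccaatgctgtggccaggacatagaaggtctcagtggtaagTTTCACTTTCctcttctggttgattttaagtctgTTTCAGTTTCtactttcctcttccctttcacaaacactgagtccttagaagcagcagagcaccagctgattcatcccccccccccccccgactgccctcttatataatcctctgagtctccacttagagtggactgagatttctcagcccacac
Phf11a promoter, chr14:59297523-59297772, minus strand: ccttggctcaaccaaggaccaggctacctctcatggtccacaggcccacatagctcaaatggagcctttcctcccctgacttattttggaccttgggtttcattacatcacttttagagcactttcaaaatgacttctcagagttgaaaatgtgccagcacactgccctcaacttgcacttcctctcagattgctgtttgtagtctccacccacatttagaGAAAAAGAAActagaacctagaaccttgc
The next 2 belong to mitotic genes, with capitals on TTTGAA on either strand, the core of the cell cycle genes homology region found in promoters of late cell cycle genes.
Espl1 promoter, chr15:102296043-102296292, plus strand: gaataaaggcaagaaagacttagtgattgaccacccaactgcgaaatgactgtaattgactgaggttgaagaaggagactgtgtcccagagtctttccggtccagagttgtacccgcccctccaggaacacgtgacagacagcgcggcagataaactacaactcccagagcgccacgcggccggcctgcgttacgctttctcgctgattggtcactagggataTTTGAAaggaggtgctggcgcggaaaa
Ncapg promoter, chr5:45669675-45669924, plus strand: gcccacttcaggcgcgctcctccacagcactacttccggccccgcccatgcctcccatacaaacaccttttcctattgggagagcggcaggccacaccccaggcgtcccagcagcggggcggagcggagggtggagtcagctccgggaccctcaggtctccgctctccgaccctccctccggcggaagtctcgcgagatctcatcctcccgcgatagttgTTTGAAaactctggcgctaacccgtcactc
The last is Ifi44, which had no exact match to GAAANNGAAA in this window. Near matches and other spacings were not counted, so an element of this kind may still be present. Ifi44 had no H3K27ac region in WT and was acetylated over all 250 bases in both cKO libraries.
Ifi44 promoter, chr3:151749911-151750160, minus strand: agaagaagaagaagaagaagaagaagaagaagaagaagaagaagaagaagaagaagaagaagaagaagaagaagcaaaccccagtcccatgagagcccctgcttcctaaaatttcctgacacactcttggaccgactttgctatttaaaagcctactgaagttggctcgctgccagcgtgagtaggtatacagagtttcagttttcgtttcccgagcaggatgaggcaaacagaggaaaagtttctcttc

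Of the host genes, 693 of 870 symbols matched a RefSeq promoter. The letters GAAANNGAAA stood in the 300-base window (250 bases before to 50 after the start) of 9 of 18 interferon genes that host a region (50%), of 41 of 693 host genes (5.92%) and of 1077 of 26794 genes in all (4.02%). TTTGAA stood in the window of 8 of 16 replication and mitosis host genes (50%) and of 8 of 18 interferon host genes (44.4%), against 135 of 693 host genes (19.5%) and 5337 of 26794 genes in all (19.9%). The first motif stood in 1 of the 16 replication and mitosis host genes. Each motif was counted alone on both strands, and the matches are letters only. None of the 6 printed stretches carried an H3K36me3 region in any library. H3K27ac covered the whole printed stretch of Ddx60 and Ifit3b in all 4 libraries. At Phf11a it covered all 250 bases in WT 1 and WT 2, 19 in cKO 1 and 98 in cKO 2. At Espl1 and Ncapg it was called in cKO 2 alone, over 194 and 250 bases.

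Most of the regions were short. Their median width was 977 bp, 558 of 1069 (52.2%) were narrower than 1 kb, 349 were 1 to 2 kb, 137 were 2 to 5 kb and 25 were 5 kb or wider, with the widest, at Ifi44, at 18629 bp. Genic regions present in all 4 libraries were far wider (median 7348 bp, n = 14511), whereas genic regions found only in both WT libraries were of a like size (median 1163 bp, n = 4996). The regions covered 825.4 kb in cKO 1 and 1404.7 kb in cKO 2, of which 727.6 kb was covered in both. cKO 2 covered more of the region than cKO 1 at 738 regions, cKO 1 more than cKO 2 at 115, and both the same length at 216. Both libraries covered at least 50% of the region at 738 of 1069.

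**Figure D1:**
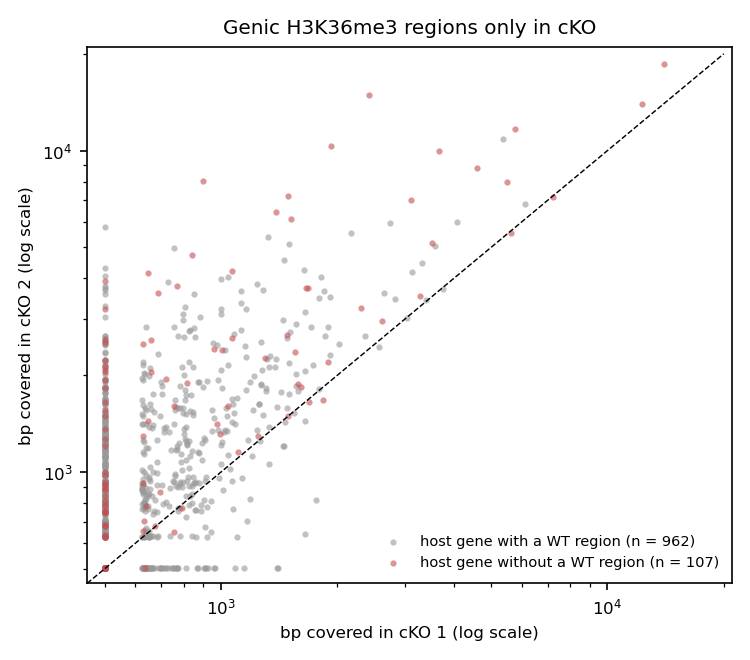
Length of each region covered in cKO 1 (x axis, bp, log scale) and in cKO 2 (y axis, bp, log scale), with grey points for regions in host genes that had an H3K36me3 region in WT (n = 962) and red points for regions in host genes without one (n = 107). cKO 2 covers more than cKO 1 at 738 of 1069 regions, which lie above the dashed line of equal length.

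The regions made up 2.12% of the 50410 genic merged regions, and all gained regions, genic or not, 2.45% of 58499. Both shares are set by the rule. The count rested on every library, since leaving one out loosens the rule: it was 1671 without WT 1, 1958 without WT 2, 6664 without cKO 1 and 3526 without cKO 2. Just inside the rule, a 702 bp region in Arid5b lay 3 bp from a WT region, a 636 bp region in Crybg1 lay 4 bp away and a 1215 bp region in Oxr1 5 bp away. Just outside it, WT 2 alone of the WT libraries overlapped a 7020 bp region in Lmnb1, a 7867 bp region in Klf6 (over 635 bp) and a 5865 bp region in Snx24. In all, 1163 genic regions were present in both cKO libraries and exactly 1 WT library.

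The regions were of 2 kinds. At 777 host genes (89.2%) the WT libraries also marked the gene elsewhere, and the cKO regions added pieces to it. At 94 host genes (10.8%) neither WT library had an H3K36me3 region anywhere in the gene body. In all, 671 of 1069 regions (62.8%) lay between WT regions of the same gene, and 426 (39.9%) ended less than 1 kb from a WT region, while 102 (9.54%) lay 20 kb or more from one. The median distance to a WT region was 1401 bp. The 94 genes without WT H3K36me3 were shorter (median 13.4 kb) than the other host genes (74.9 kb), against 17.4 kb over all protein-coding genes, and the regions in them were wider (median 1655 bp against 961 bp).

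In the first kind, median coverage of the gene as a whole was not higher in both cKO libraries. The median covered share of the body of the 777 genes was 29.4% and 32.2% in WT and 14.1% and 35.0% in cKO, so the WT values lay between those of the cKO libraries. Of the 871 host genes, 384 (44.1%) also held a region present only in both WT libraries, so gained and lost pieces often fell in one gene. Over all protein-coding genes 2602 of 21755 (12%) held one. These 2 shares are not matched for gene length or for H3K36me3 in WT. Host genes had a median length of 66 kb, against 17.4 kb over all protein-coding genes. In the 94 genes the median was 0% in both WT libraries by construction, 8.53% in cKO 1 and 23.9% in cKO 2.

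The regions lay nearer to the 5' end of the gene than other H3K36me3 regions did. Their midpoint was at a median of 44.8% of the gene length from the 5' end (n = 1069), against 54.3% for regions only in WT and 61.6% for regions in all 4 libraries. The first 20% of the gene length held 24.7% of them and the last 20% held 16.4%, whereas regions only in WT were split 16.7% and 23.5%, and those in all 4 libraries 10.7% and 24.6%. The 2 kinds of host gene differed in this. In genes marked in WT the median position was 42.8% (n = 962), and in genes without WT H3K36me3 it was 61.9% (n = 107), with 28.0% of regions in the last 20%. Midpoints were intronic in 940 of 1069 (87.9%), in a coding exon in 35 and in an untranslated exon in 94. These shares were close to those of regions only in WT (86.1% intronic). No test was made, as the libraries that place the regions are those that chose them.

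**Figure D2:**
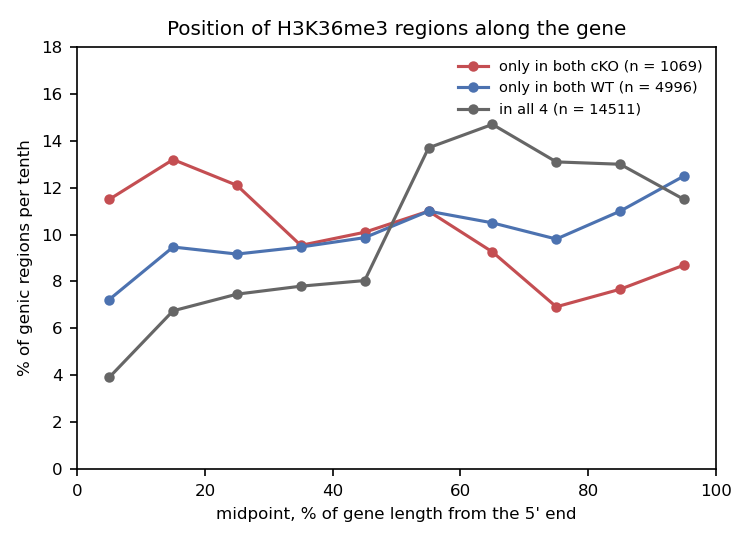
Share of genic H3K36me3 regions (y axis, %) whose midpoint falls in each 10% of the gene from the 5' end (x axis, %), for regions only in both cKO (red), only in both WT (blue) and in all 4 libraries (grey). The cKO regions peak at 10% to 20% of the length (13.2%), and regions in all 4 libraries lie mostly beyond 50%.

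The regions also coincided with other marks more often than regions that were only in WT did. H3.3-HA regions of the tagged mice overlapped 30.4% and 29.1% of them in replicates 1 and 2, and 21.3% (228 of 1069) in both. For regions only in WT the shares were 9.99% and 9.93%, and over all genic regions 22.3% and 22.1%. Regions in all 4 libraries, which were far wider, had 44.9% and 43.2%. Among regions under 1 kb the shares were 26.3% and 24.9% for the cKO regions, 10.4% and 10.7% for regions only in WT, and 11.9% and 12.2% for all genic regions. Regions in all 4 libraries had 14% and 9.3% at that width (n = 86). H3K27ac regions overlapped 42.6% and 38.0% of the cKO regions in WT and 28.6% and 33.3% in cKO. For regions only in WT the H3K27ac shares were 21.8% and 17.0% in WT and 7.11% and 9.87% in cKO. Over all genic regions they were 35.3% and 30.7% in WT and 18.7% and 22.7% in cKO. For regions in all 4 libraries they were 61.4% and 55.2% in WT and 38.5% and 45.2% in cKO. For the 671 regions lying between WT regions the shares were 48.6% and 43.2% in WT and 28.3% and 32.8% in cKO. In genes without WT H3K36me3 the order was the other way, with 20.6% and 19.6% in WT and 24.3% and 29.0% in cKO (n = 107). An H3K27ac region present only in both cKO libraries overlapped 1.59% of the regions, against 1.65% of all genic regions, and one present only in both WT libraries 5.24%, against 10.5%.

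Among the 94 genes without WT H3K36me3, 27 had at least 25% of the body covered in the lower cKO library and 7 at least 50%. Of the 94, 7 were on the interferon list. For each gene below, the covered share of the body was 0% in WT 1 and WT 2.

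Oasl1 (chromosome 5, 114923240 to 114937915) was covered over 80.6% in cKO 1 and 85.6% in cKO 2. Ifi44 (chromosome 3, 151730922 to 151749960) was covered over 73.1% and 94.2%, and the nearest WT region lay 433447 bp away. Phf11a, an interferon-induced member of the PHD finger 11 cluster on chromosome 14, had 46.3% and 81.6%. These 3 genes were covered in both cKO libraries over long parts of the body.

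Gm4951, an interferon-inducible GTPase gene on chromosome 18, held 3 regions that summed to 29656 bp, the most of any host gene, with 26.2% of the body covered in cKO 1 and 79.8% in cKO 2. Its neighbour F830016B08Rik had 25.2% and 88.4%. Slfn4, a Schlafen gene of myeloid cells, had 25.2% and 42.6%, and Ifit3b, which encodes an interferon-induced RNA-binding protein, 32.2% and 41.6%. Phf11a, Ifit3b and Gm4951 belong to families of related genes, so reads may be shared between copies.

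Rgs1, which shortens G-protein signalling of chemokine receptors, had 79.2% and 92.3%. Irf2bp2, a corepressor that binds IRF2, had 68.4% and 70.5%, and the nearest WT region lay 115144 bp away. Ier5, an immediate-early gene, had 54.9% and 56.0%, and Rhob, a rapidly induced small GTPase, 48.6% and 62.4%. These 4 genes are all under 10 kb long.

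Zbtb22, a zinc finger gene, had 59.3% and 70.9%. Fth1, the heavy chain of ferritin, had 49.2% and 51.8%. Ccl7, a monocyte-attracting chemokine, had 57.4% and 75.8%, and was the 1 of 36 genes of the chemokine and cytokine list that hosted a region. Zfp36 (tristetraprolin, which brings about the decay of cytokine mRNAs) had 18.9% and 74.1%. The first 3 had high coverage in both cKO libraries, and Zfp36 mostly in cKO 2.

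Axl (chromosome 7, 25757273 to 25788705) had 9.25% in cKO 1 and 61.8% in cKO 2. Ccnd2, cyclin D2 of the G1 phase, had 9.22% and 46.8%. Ccnb1, cyclin B1, which drives entry into mitosis, had 25.5% and 79.5%. Trem1, a receptor that amplifies inflammatory signalling of myeloid cells, had 8.20% and 33.2%. At these 4 genes the gain was present in both cKO libraries but several times longer in cKO 2, the library with more tags inside regions.

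Some regions lay in genes without any H3K27ac. Of the Hox genes of body patterning on chromosome 6, chosen for mention after their values were seen, Hoxa11 was a host with 37.3% and 84.5% of the body covered in cKO, as were Hoxa2 with 20.7% and 51.2%, and Hoxa10 with 12% and 24.3%. None of these had an H3K27ac region in any library. Cacng4, an accessory subunit of neuronal glutamate receptors, had 12.1% and 16.1% over 3 regions and no H3K27ac region either. The uncharacterised gene 1700018B08Rik had 19.1% and 63.6%, also without H3K27ac.

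**Figure D3:**
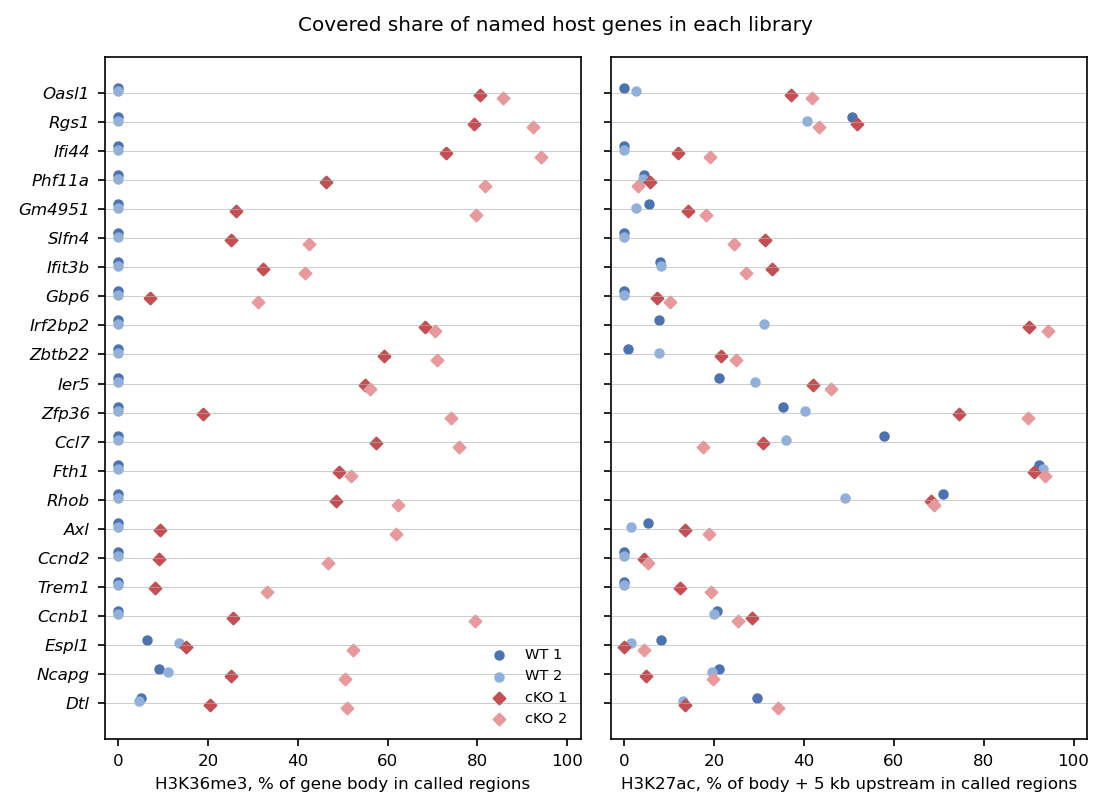
Share of the gene body in called H3K36me3 regions (left, %) and share of the body plus 5 kb upstream in called H3K27ac regions (right, %) for 22 host genes, with blue circles for WT 1 and 2 and red diamonds for cKO 1 and 2. H3K36me3 is 0% in WT for the upper 19 genes, and H3K27ac is higher in both cKO libraries at Oasl1, Ifi44, Slfn4 and Irf2bp2 but not at Rgs1 or Fth1.

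Several genes that were marked in WT gained large parts in cKO. Ifi213, of the interferon-inducible p200 family of DNA sensors, was covered over 11.5% and 10.6% in WT and 76.2% and 88.5% in cKO. Usp18, which removes ISG15 and restrains interferon signalling, had 32.9% and 37.5% in WT and 65.1% and 82.9% in cKO. Ms4a4c had 2.23% and 6.46% in WT and 37.5% and 51.2% in cKO. Ddx60, a helicase of antiviral defence, had 52.5% and 51.5% in WT and 83.4% and 97.8% in cKO. In all 4 genes the cKO libraries did not overlap those of WT. Ifi213, Usp18, Ms4a4c, Ifit3b and Mki67 were chosen after their values were seen.

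Of the genes of cell division, Mki67, a proliferation marker, was covered over 24.8% and 40.7% in WT and 61.7% and 87.2% in cKO. Dtl, which targets Cdt1 for destruction in S phase and is not in the fixed list, had 5.08% and 4.60% in WT and 20.4% and 50.9% in cKO. Ncapg, a condensin subunit, had 9.11% and 11.1% in WT and 25.2% and 50.6% in cKO. Espl1 had 6.53% and 13.5% in WT and 15.1% and 52.3% in cKO, and one of its 2 regions ended 43 bp from a WT region. The order was not kept at Kif20b, a mitotic kinesin, where WT had 44.8% and 48.6% and cKO 36% and 73.1%, nor at Brca1 and Blm, which act in repair by recombination. Brca1 had 9.51% and 12.5% in WT and 7.93% and 24.4% in cKO, and Blm 4.43% and 7.34% in WT and 4.80% and 17.3% in cKO.

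Other genes named for their summed length or number of regions were long. Itpr1, the IP3 receptor of intracellular calcium release, held 6 regions and was covered over 1.33% and 1.5% in WT and 4.56% and 14.8% in cKO. Pde7b, a cAMP phosphodiesterase, also held 6, with 2.54% and 3.20% in WT and 7.08% and 15.1% in cKO. Pde4d, of the same enzyme class, held 1 region of 11163 bp in a gene of 1503514 bp. Ctnnd2, a catenin, held 6 regions with at most 0.0585% of the body covered in WT and 1.20% and 3.17% in cKO. At Frmd4b, Nav2 and Elmo1, the last an adaptor for engulfment, coverage in WT (38.5% and 38.2%, 15.3% and 17.3%, 22.5% and 25.9%) lay between cKO 1 and cKO 2 (34.8% and 48.8%, 12.2% and 23.9%, 17.3% and 35.0%). The gene models Gm20388 and Gm37240 held 7 regions each but overlap 73 and 7 other protein-coding genes, so their regions belong to other genes as well. Gm6904, next to Phf11a, had 0% and 3.18% in WT and 21.5% and 51.3% in cKO.

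Host genes were next compared with fixed gene lists. Over all protein-coding genes 4% hosted a region. Of 105 interferon genes 21 did (20.0%), of 56 DNA replication and mitosis genes 16 (28.6%), of 21 genes for phagocytosis of dead cells 5 (23.8%), and of 40 DNA damage and p53 target genes 4 (10.0%). The other interferon hosts were Phf11b, Rtp4, Mndal, Sp110, Gbp3, Sp100, Ifi209, Samd9l, Ifi203, Herc6 and Ifi205. The other replication and mitosis hosts included Cdc6, which licenses origins, Ect2, a guanine nucleotide exchange factor of cytokinesis, and the kinesins Kif15 and Kif18a. The dead cell uptake hosts were Axl, Elmo1, Dock1, Rac1 and the integrin subunit Itgb5, and the DNA damage hosts were the kinases Chek1, Atr and Atm and the p53 target Aen. Hosts numbered 0 among 39 genes of lipid and sterol synthesis, 22 macrophage identity genes and 67 replication-coupled histone genes. The lists for neutrophils, dendritic cells, B cells, T and NK cells, mast cells, fibroblasts and erythroid cells (8 to 14 genes each) also had 0 hosts.

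Long genes that carry H3K36me3 can host a region more easily than short or unmarked ones, and the list shares were not adjusted for this. All 56 replication and mitosis genes carried H3K36me3 in at least 1 library, as did 97 of 105 interferon genes. Regions present only in WT fell in 4 of 105 interferon genes (3.81%) and 4 of 56 replication and mitosis genes (7.14%), against 12% of all genes. The other lists with hosts were higher, with 4 of 21 dead cell uptake genes (19%), 8 of 40 DNA damage genes (20%), 3 of 15 genes for H3.3 and its chaperones (20%), 64 of 394 zinc finger genes (16.2%) and 9 of 16 H3K36 methylation enzymes (56.2%), except for the chemokine list with 0 of 36 and the olfactory and vomeronasal receptor list with 1 of 1466. The list counts rose when a cKO library was left out, together with the background. They were 39 interferon and 29 mitotic genes without cKO 1 (37.1% and 51.8%, background 15.5%) and 35 and 32 without cKO 2 (33.3% and 57.1%, background 10.2%).

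Another pair of lists concerns the mark and the histone themselves. Of 16 H3K36 methylation enzymes, 3 were hosts (18.8%): the methyltransferase Nsd1, the demethylase Kdm2a and Setd5. More of the same 16, namely 9 (56.2%), held a region present only in WT. Kdm2a was covered over 81.5% and 80.7% in WT and 58.5% and 76.5% in cKO, below WT in both libraries. Of 15 genes for H3.3 and its chaperones, 3 were hosts (20.0%): Hira, which deposits H3.3, Chaf1b, a subunit of the replication-coupled chaperone CAF-1, and H3f3b itself. H3f3b was covered over 10.7% and 14.2% in WT and 39.6% and 33.6% in cKO, and its region of 863 bp lay just upstream of exon 1 in the 4-exon model but between exons 1 and 4 of the 6-exon model. In the second case it is called inside the stretch that the cKO label takes as deleted, so it is not read here as an ordinary gain. Hira as a whole was covered less in both cKO libraries, with 62.3% and 64.6% in WT and 19.3% and 54.7% in cKO. Of the 394 genes on the zinc finger list, 4 hosted a region (1.02%), namely Zfp36, Zfp266, Zfp981 and Zfp148. That list does not hold every zinc finger gene, and the host Zbtb22 is not on it. Of 1466 olfactory and vomeronasal receptor genes only Olfr56 was a host, through a gene model that overlaps 7 other protein-coding genes.

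The study's lists of genes with changed RNA in cKO, made from other libraries of the same genotypes, were also compared, using their gene names only. Of 341 genes listed as higher at day 7, 41 hosted a region (12% of that list and 4.71% of the host genes). Of 228 listed as lower, 10 did (4.39% of that list and 1.15% of the host genes). The higher list held 20.2% of the 94 host genes without WT H3K36me3 (19 genes), 2.83% of the 777 other host genes (22 genes) and 1.57% of all protein-coding genes. The lower list held 1.06%, 1.16% and 1.05% of these. The lists of the other days were added after the day 7 values were seen. Hosts made up 11.1% of the higher and 8.42% of the lower list at day 3, 13.7% and 7.75% at day 5, and 18.9% and 4.17% at day 8.

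**Figure D4:**
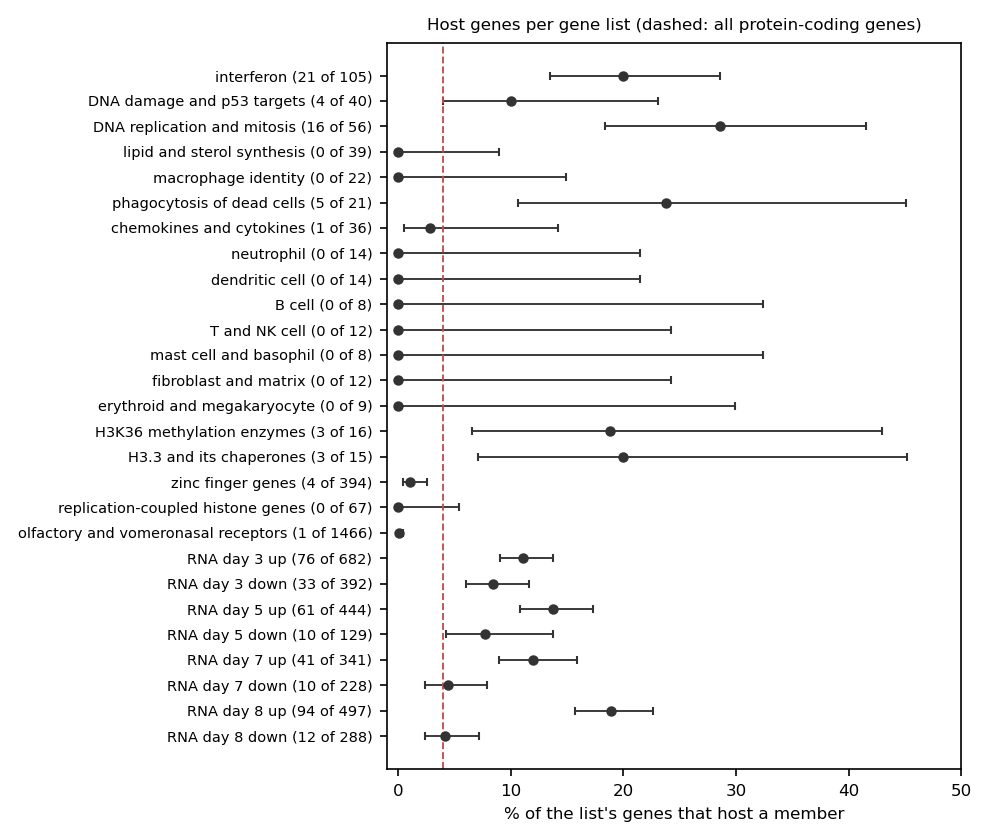
Share of the genes of each list that host a region present only in cKO (x axis, %), with 95% Wilson intervals that cover counting error only. The dashed line is the 4% of all protein-coding genes, and interferon genes (20.0%) and replication and mitosis genes (28.6%) lie to its right.

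H3K27ac at the same genes was measured over the gene body and 5 kb upstream, in libraries that the rule did not use. Of the 871 host genes, 843 had an H3K27ac region in at least 1 of 4 libraries. In 234 of these (27.8%) an H3K27ac region was gained, that is, present in both cKO and in neither WT library, against 17.3% of 12766 genes with H3K27ac. In 548 (65.0%) a region was lost, against 37.3%. The covered length was higher in both cKO libraries than in both WT libraries in 106 host genes (12.6%, background 17.4%) and lower in 478 (56.7%, background 38.2%).  With 2 libraries against 2, a single gene cannot go below an exact two-sided permutation p of 0.333, and genes whose groups did not overlap have this value.

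Gene length moved with these shares. Among host genes of 100 kb or more a region was gained in 38.7% and lost in 91.3% (n = 300), against 25.4% and 69.1% of all genes of that length. Among host genes of 10 to 30 kb the shares were 20.0% and 20.7% (n = 145), against 14.8% and 25.2%, and under 10 kb both were 8.77% (n = 57), against 12.7% and 11.8%. Coverage was higher in both cKO libraries in 40.4% of host genes under 10 kb (all genes 30.2%) and in 29.7% at 10 to 30 kb (20.9%). It was higher in 7.92% at 30 to 100 kb (9.53%) and in 4.33% at 100 kb or more (5.15%). The lower shares in the same order were 19.3% (17.8%), 29% (29.2%), 58.7% (52.5%) and 75% (62%). When only promoters were counted (1 kb either side of a start), an H3K27ac region was gained at 77 host genes (9.77%, background 9.83%), which is close to the background. Without cKO 1 the gained count was 559 (66.5%, background 46.5%) and without cKO 2 it was 504 (60.1%, background 39.8%). The higher count was 216 without cKO 1 (25.7%, background 37.6%) and 169 without WT 1 (20.1%, background 27.8%).

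The 2 kinds of host gene differed in H3K27ac. Of 77 host genes without WT H3K36me3 that had H3K27ac, 38 (49.4%) were higher in both cKO libraries and 17 (22.1%) lower, against 19.5% and 25.6% of all 2851 genes without WT H3K36me3. Their median covered share was 6.90% and 5.21% in WT and 10.3% and 14.4% in cKO. Of 766 host genes with WT H3K36me3, 68 (8.88%) were higher and 461 (60.2%) lower, against 16.8% and 41.9% of all 9915 such genes. The median of the 766 genes was 15.2% and 12.2% in WT and 7.01% and 9.58% in cKO. These shares are not matched for gene length. Under 10 kb, 44.1% of host genes without WT H3K36me3 were higher and 17.6% lower (n = 34), against 26.4% and 18.8% of all such genes. At 10 to 30 kb the shares were 72.7% and 13.6% (n = 22), against 21.1% and 22.3%. At 30 to 100 kb they were 35.7% and 57.1% (n = 14), against 15.7% and 29.5%. At 100 kb or more they were 28.6% and 0% (n = 7), against 8.48% and 38.3%. At 100 kb or more, 3.75% of host genes with WT H3K36me3 were higher and 76.8% lower (n = 293). Among genes of that length with WT H3K36me3 that hosted no region, 3.82% were higher and 69.9% lower (n = 994). Leaving out a single H3K27ac library loosens the call for every gene. The count of 38 was then 40 to 49 (52.6% to 64.5%). The share over all genes with H3K27ac was 20.6% to 37.6%, against 17.4% with all libraries.

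**Figure D5:**
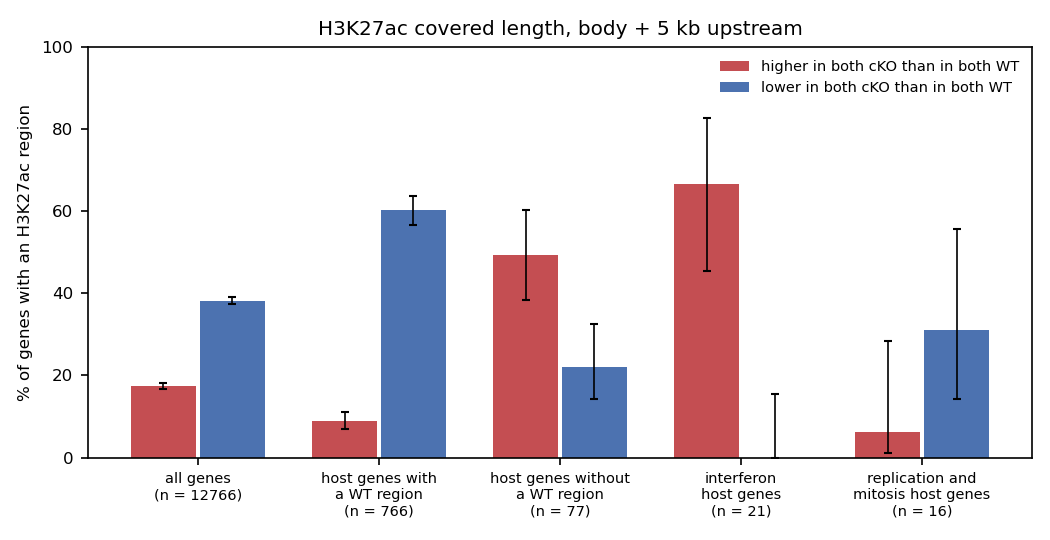
Share of genes with an H3K27ac region (y axis, %) whose covered length over the body and 5 kb upstream was higher (red) or lower (blue) in both cKO libraries than in both WT libraries, with 95% Wilson intervals that cover counting error only. Host genes without WT H3K36me3 and interferon host genes are more often higher (49.4% and 66.7%), and host genes with WT H3K36me3 more often lower (60.2%). The shares are not matched for gene length.

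Of the 21 interferon host genes, 14 were higher in H3K27ac in both cKO libraries and 0 lower. Of 83 interferon genes that hosted no region, 51 were higher (61.4%) and 4 lower. Oasl1 had H3K27ac over 0% and 2.55% of the window in WT and 37.2% and 41.7% in cKO. Ifi44 had 0% in both WT libraries and 12% and 19% in cKO, with 4567 bp of gained region. Slfn4 had 0% in both WT libraries and 31.2% and 24.5% in cKO, with 5614 bp gained. Ms4a4c had 1.82% and 0% in WT and 30.8% and 36.6% in cKO. All 4 had cKO values above both WT values, while Phf11a, with 4.4% and 4.04% in WT and 5.69% and 3.04% in cKO, did not.

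Of the 16 replication and mitosis hosts, 1 was higher (Ccnb1, with 20.7% and 19.9% in WT and 28.4% and 25.3% in cKO) and 5 were lower, among them Mki67 with 46.8% and 33.6% in WT and 24.3% and 19.7% in cKO. The 40 genes of that list without a region had 6 higher and 15 lower. At Mki67 the cKO libraries thus lay above WT in H3K36me3 and below it in H3K27ac.

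Other genes without WT H3K36me3 varied. Irf2bp2 had 7.76% and 31.0% of the window acetylated in WT and 90.1% and 94.2% in cKO, and Zfp36 35.4% and 40.1% in WT and 74.5% and 89.8% in cKO. Axl had 5.24% and 1.38% in WT and 13.4% and 18.8% in cKO. Rgs1 did not separate the groups (50.7% and 40.6% in WT, 51.7% and 43.3% in cKO), and Fth1 was acetylated over 91.3% to 93.6% in every library. Ccl7 was lower in cKO, with 57.7% and 36% in WT and 30.9% and 17.5% in cKO. These host genes thus included ones with H3K27ac above, overlapping and below WT.

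By length of gained H3K27ac, the leading host genes were, beside Ifi44, Slfn4 and the multi-gene model Gm20388, Atp8b4 (a phospholipid flippase, 7063 bp), Itpkb (an inositol kinase, 6550 bp), Pde4d (6396 bp), Itpr1 (5316 bp), Arhgap26 (4582 bp in ENSMUSG00000036452.18, since 2 gene models carry this name), Cmip (3855 bp) and Trem1 (3696 bp). Trem1 went from 0% in both WT libraries to 12.4% and 19.3% in cKO. At Cmip 15244 bp were lost at the same time, and its H3K27ac was lower overall.

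By length of lost H3K27ac, the leading host genes, beside Gm20388, were Elmo1 (45686 bp), Pid1 (45266 bp), Peak1 (45090 bp), Nrp1 (33272 bp), Hdac9 (30876 bp), Mef2a (29972 bp), Cep128 (28957 bp), Mms22l (27716 bp) and Rngtt (24675 bp). In all 9 the cKO libraries lay below both WT libraries. The ranking used these same H3K27ac libraries, so this follows in large part from the choice. All 9 genes are longer than 100 kb. At 100 kb or more, 75% of host genes were lower in both cKO libraries, against 62% of all genes. Nrp1, a co-receptor for semaphorins and VEGF, had 63.7% and 59.9% of the window acetylated in WT and 9.65% and 10.5% in cKO. Its H3K36me3 was 71.7% and 72.2% in WT and 52.8% and 80.2% in cKO. Peak1, a pseudokinase of the cytoskeleton, had 48.6% and 40.6% acetylated in WT and 8.42% and 15% in cKO. Mef2a, a transcription factor, had 52.8% and 43.4% in WT and 12.8% and 9.25% in cKO, and a 3438 bp region of H3K36me3 only in cKO that ended 21 bp from a WT region. Elmo1 had 34.0% and 24.6% in WT and 9.64% and 11.7% in cKO, together with 5 new H3K36me3 regions in introns. These 9 genes lost wide acetylated stretches, and each holds a cKO-only piece of H3K36me3 by the rule. Whole-body H3K36me3 was below WT in both cKO libraries at Rngtt, Cep128 and Peak1 (68.2% and 67.9% in WT, 34.8% and 55.2% in cKO). It was above WT in both at Hdac9 (0.802% and 0.461% in WT, 2.17% and 6.63% in cKO). At Elmo1, Pid1, Nrp1, Mef2a and Mms22l the WT values lay between those of the cKO libraries.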

How the data were processed

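CUT & RUN regions of 10 libraries were used. IgG libraries served the authors as controls and were not analysed here. Per the study's methods, paired reads were mapped to mm10 with Bowtie2 and regions were called per library with HOMER. Per the file headers, peaks were 500 bp wide, were joined into regions, and had to pass a 4-fold excess over a single control tag directory per genotype. Each deposited list holds region bounds only, with a score column of 1 throughout, so the presence and length of regions were compared and no read density. The deposited score was not used. Genes were those of GENCODE M21, whose build was checked against GRCm38.p6.

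Python 3 scripts merged the lists, with overlap of 1 bp or more, and computed covered lengths (numpy, scipy). The placement was by region midpoint, and where bodies overlap, the shortest gene gave the position. Scripts were tested on simulated data. Since the marks were not measured with count tables, the only test available per gene was the exact permutation test, and intervals are Wilson intervals at 95% that cover counting error only. Genes are not independent replicates. Replicate numbers were not used as pairs in the reported values.

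The named genes were those with the most summed region length (20), the highest lower cKO coverage among genes without WT regions (10), the most summed region length per gene list (up to 6), the most gained and lost H3K27ac (10 each) and the most regions (5), with 3 regions on either side of the rule. Host genes outside this rule were named after their values were seen. The members and the lists were chosen with earlier results of these data known. Alternatives are given in the closing section.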

Additional observations from a re-analysis of the deposited data

How the results depend on the processing

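Of 96 alternative values for 10 results, 73 stayed within 1.5 times the reported value or within the interval of the median position (40.7% to 47.4%). The region count of 1069 was 643 with no WT region within 1 kb and 383 with regions of 1 kb or more, and 1671 to 6664 with single libraries left out. The median position was 47.4% with regions of 1 kb or more in all lists, and 43.8% to 45.8% with libraries left out. Interferon hosts numbered 13 when each cKO library had to cover at least 50% of the region (12.4%, background 2.99%). With libraries left out they numbered 23 to 39 (21.9% to 37.1%), and replication and mitosis hosts 16 to 32 (28.6% to 57.1%). The background was then 5.88% to 15.5% of all protein-coding genes. Host genes with gained H3K27ac numbered 77 for promoters only (9.77%, background 9.83%) and 149 with H3K27ac regions of 1 kb or more (18.5%, background 15.7%). They numbered 151 for members with no WT region within 1 kb (29.3%, background 17.3%). With libraries left out they numbered 323 to 559 (38.4% to 66.5%, background 25.1% to 46.5%). Host genes higher in H3K27ac numbered 251 for promoters only (31.9%, background 33.0%) and 161 with lists of equal length (19.3%, background 25%). With libraries left out they numbered 119 to 216 (14.2% to 25.7%, background 20.6% to 37.6%). Those lower numbered 185 for promoters only (23.5%, background 19.2%) and 277 for members with no WT region within 1 kb (53.8%, background 38.2%). With libraries left out they numbered 487 to 627 (58% to 74.7%, background 40.4% to 57.5%). The cause of these changes was not tested, beyond fewer or more regions passing. Alternatives for lower coverage, for host genes without WT H3K36me3, for interferon host genes, for the gene lists and for H3.3-HA, and some for the position and for higher coverage, were chosen after seeing the data.

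With the replicate block (cKO above or below WT within each same-numbered pair), 117 host genes were higher in H3K27ac (13.9%, background 19.8%) and 491 lower (58.2%, background 40.8%). Those higher numbered 41 among host genes without WT H3K36me3 (53.2%) and 14 among interferon hosts (66.7%), and the region count stayed at 1069 by construction. The block was run on these 5 counts and not on the other results. The labels do not say whether same-numbered samples were prepared together. Their deviations from the group means across genes correlated at 0.0749 for H3K36me3 (11156 genes) and -0.0456 for H3K27ac (12099 genes), so the numbers were not taken as pairs.

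Region lists hold no read counts, so a weak signal under the caller's limit cannot be told from none, and cKO 1, with the smallest covered length, limits every statement about both cKO libraries.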
